A study of Mus musculus with 11 samples.

Results

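The imprinted Dlk1-Dio3 miRNA cluster was followed through 11 small RNA libraries of mouse sperm, oocytes and 2PN embryos (fertilised eggs that hold both pronuclei). Members were every listed mature arm of 48 hairpins of the cluster, chosen by miRNA name and not by their values. This gave 74 mature arms from 46 hairpins, of 2304 listed features, 1592 of them mature miRNAs. The arms of miR-412 and miR-1193, also in the rule, had no row. Both arms were listed for 28 hairpins and 1 arm for the other 18.

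The mice were adults on a C57BL/6 background. Sperm from the cauda epididymis came from wild-type (WT) males with 2 libraries, from males with a germ line conditional knockout (cKO) of Dicer with 2 libraries, and from males with a germ line conditional knockout of Drosha with 3 libraries. The knockouts used Cre and loxP. The labels name neither the Cre driver nor the deleted exons, and the messenger RNAs of the deleted genes are not among the listed features, so the deletion was not checked here. There was 1 library of WT oocytes, collected from oviducts after superovulation, and 1 library each of 2PN embryos made by injecting WT, Dicer cKO or Drosha cKO spermatozoa into eggs (ICSI). A 2PN label therefore gives the genotype of the sperm donor, and the labels do not state the genotype of the eggs that were injected. How many animals or cells went into a library, and whether replicate libraries had different donors, is not in the labels. The p-values thus measure only the spread between these samples, which may be technical. In such bulk libraries fewer cells of a type and less RNA per cell cannot be told apart.

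The cluster lies between the genes Dlk1 and Dio3, and in most mouse tissues its miRNAs are made only from the maternally inherited chromosome, from long noncoding RNAs that include Meg3, an antisense transcript of Rtl1, Rian and Mirg. The paternal copy carries DNA methylation at a control region that is set in the male germ line, and its noncoding RNAs are silent in the embryo. Drosha cuts a hairpin out of the long transcript in the nucleus, and Dicer cuts the hairpin into a duplex from which 1 arm usually enters an Argonaute protein. The seed, bases 2 to 8 of a mature arm counted from its 5′ end, does most of the pairing with target messenger RNAs. The cluster's miRNAs are best known from placenta, brain and embryo.

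On the RefSeq annotation of GRCm38.p6, the assembly that corresponds to the build mm10 named in the submitters' notes, the 46 hairpins spanned 180.104 kb at chr12:109563692-109743795. The first was Mir770, inside the span of Meg3, and the last was Mir410, inside the span of Mirg. Of the hairpins, 13 with 21 listed arms lay upstream of Mir379, and the other 33 hairpins with 53 listed arms began at Mir379 or after it. By gene, 10 hairpins fell inside the span of Rtl1, 2 inside Rian, 7 inside Mirg, 1 inside Meg3 and 26 inside none of these 4 gene spans. RefSeq mature sequences were matched for 71 members, which lie on the plus strand.

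The sequences below are RefSeq mature sequences of GRCm38.p6, written 5′ to 3′ with the seed in capitals. The first 4 are the arms with enough reads in sperm to be tested, and none of the other members shares a seed with them.
miR-369-3p: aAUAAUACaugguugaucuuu
miR-380-3p: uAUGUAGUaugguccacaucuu
miR-434-3p: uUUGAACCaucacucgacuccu
miR-136-5p: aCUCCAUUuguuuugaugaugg
The next 4 are the arms with at least 5 reads in a library of oocytes or 2PN embryos.
miR-376b-3p: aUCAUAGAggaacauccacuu
miR-376a-3p: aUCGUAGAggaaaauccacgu
miR-341-5p: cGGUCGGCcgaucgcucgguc
miR-433-3p: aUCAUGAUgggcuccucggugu

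These arms lie at chr12:109743466-109743486 (miR-369-3p), chr12:109711842-109711863 (miR-380-3p), chr12:109594565-109594586 (miR-434-3p) and chr12:109595331-109595352 (miR-136-5p). The second set lies at chr12:109723508-109723528 (miR-376b-3p), chr12:109723824-109723844 (miR-376a-3p), chr12:109611521-109611541 (miR-341-5p) and chr12:109591781-109591802 (miR-433-3p). The arms miR-376b-3p and miR-376a-3p come from neighbouring hairpins and differ at 3 of 21 bases, A4G, C13A and U20G, with the base of miR-376b-3p first and positions counted from its 5′ end. A4G lies in the seed, so the 2 arms have different seeds. Among the 71 sequences there were 69 seeds. Only 2 seeds were shared, one by miR-379-3p and miR-411-3p and the other by miR-494-5p and miR-410-5p. Mature arms were 19 to 25 bases long, and reads were compared between arms without a correction for length. Their median content of A and U was 52.6%, against 47.8% over 1679 RefSeq mature mouse miRNAs.

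The hairpins of the 2 most abundant arms are shown next because 99.3% of the reads of Mir369 and 92.8% of those of Mir376b, over all libraries, came from the 3p side of the stem. Both are RefSeq hairpins of GRCm38.p6 on the plus strand, with the 5p arm and then the 3p arm in capitals. Mir369 lies at chr12:109743418-109743496, inside Mirg, and Mir376b lies at chr12:109723458-109723539, inside none of the 4 gene spans.
Mir369: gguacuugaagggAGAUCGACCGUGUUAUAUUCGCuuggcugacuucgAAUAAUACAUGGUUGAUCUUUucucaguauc
Mir376b: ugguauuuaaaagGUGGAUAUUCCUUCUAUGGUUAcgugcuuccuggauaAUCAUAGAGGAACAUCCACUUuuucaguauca

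Listed reads, the sum of all counts in a library's column, ranged from 12003 to 278890 in sperm libraries and from 2951 to 8967 in the others. Replicates 2 and 3 of Drosha cKO sperm were shallow, with 12003 and 15921 listed reads. Several lists of miRNAs known from particular cell types differed in their share between the sperm groups, though not all arms of a list did. The epithelial list (the miR-200 family, 10 arms, none at 0 over sperm) took 1.59% and 1.82% of listed reads in WT, against 13.1% and 16.2% with the Dicer cKO and 11.5% to 14.3% with the Drosha cKO. The red cell list (3 arms) took 0.256% and 0.379%, then 3.84% and 4.04%, then 1.72% to 2.02%. The male germ cell list (miR-34b, miR-34c and miR-449, 9 arms), which belongs to the sperm lineage itself, took 16.3% and 18.1% in WT sperm. It took 0.719% in both Dicer cKO libraries and 1.46% to 2.48% with the Drosha cKO. Shares of listed reads depend on one another, so a fall in 1 list raises the shares of the others. Neural miRNAs, a list that matters here because the brain is rich in this cluster, took 0.398% and 0.447% in WT, 0.248% and 0.338% with the Dicer cKO and 0.418% to 1.53% with the Drosha cKO. That sum hides arms that moved in opposite directions: of 4 neural arms tested by edgeR, 3 were called lower and 1 higher in Drosha cKO than in WT, and 3 were called lower in Dicer cKO. Over all 335 features tested, 111 were called lower and 74 higher in Drosha cKO, and 104 lower and 54 higher in Dicer cKO. In Dicer cKO and Drosha cKO, edgeR called higher than WT 7 and 8 of 8 epithelial arms tested and 3 and 2 of 3 red cell arms. In further lists it called higher 2 and 1 of 2 endothelial arms, 2 and 0 of 6 stromal arms and 2 and 2 of 5 leukocyte arms. Of the arms in these 5 lists only 1 was called lower, a leukocyte arm in Drosha cKO. The part of these lists in the results on the cluster was not tested.

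The cluster was a small fraction of sperm miRNA and its share was highest in Drosha cKO sperm. Member reads numbered 129 and 507 in the WT libraries, 260 and 210 in Dicer cKO, and 457, 91 and 84 in Drosha cKO. As a share of listed reads this was 0.176% and 0.182% in WT sperm, 0.211% and 0.194% in Dicer cKO, and 0.453%, 0.758% and 0.528% in Drosha cKO. All 3 Drosha cKO libraries lay above the other 4, and WT and Dicer cKO lay next to each other without overlap. Group values were 0.179% ± 0.00424 (SD, n = 2) in WT, 0.203% ± 0.0122 (SD, n = 2) in Dicer cKO and 0.580% ± 0.159 (SD, n = 3) in Drosha cKO, and no test was made of a sum over members.

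Most of that difference was in a single arm. miR-369-3p, from a hairpin near the downstream end of the cluster, held 1117 of the 1738 member reads in sperm, or 64.3%. Without it the share was 0.117% and 0.0706% in the WT libraries, 0.0651% and 0.0989% in Dicer cKO, and 0.110%, 0.167% and 0.126% in Drosha cKO. The lowest Drosha cKO library then lay below the higher WT library, so those groups overlapped. The scale also mattered. On the deposited RPM values, whose divisor counts more than the listed reads, the members summed to 37.9 and 183 RPM in WT, 93.5 and 136.2 in Dicer cKO and 122, 221 and 111 in Drosha cKO, and the groups overlapped.

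**Figure D1:**
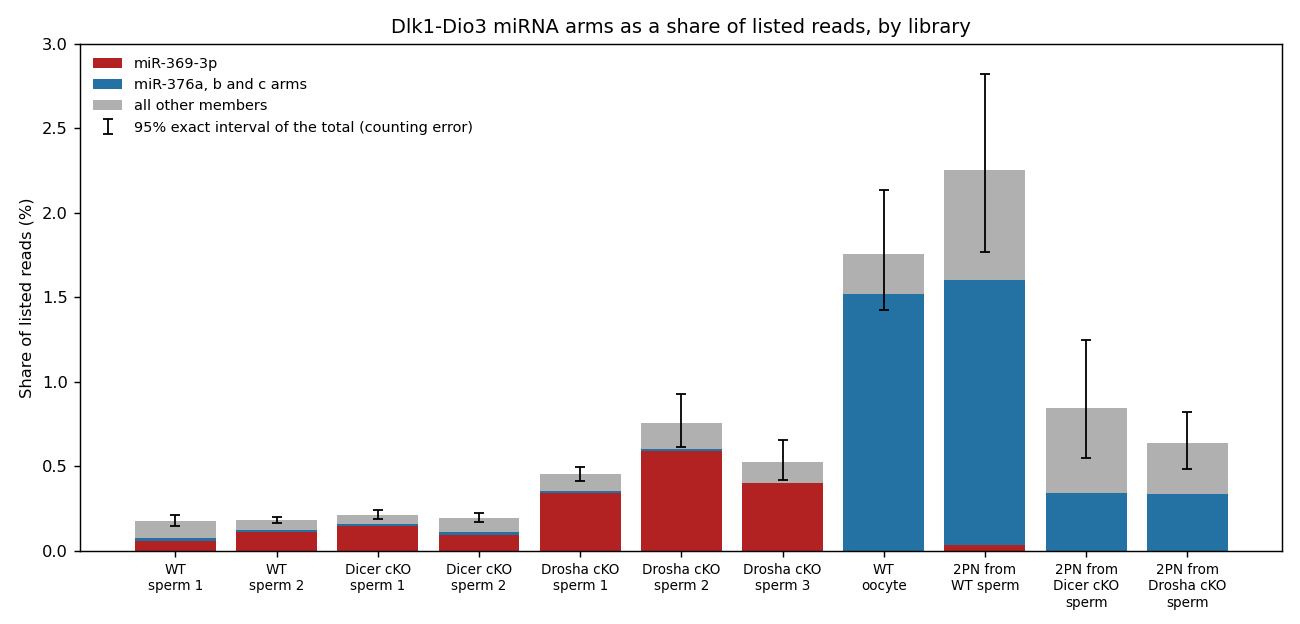
Share of listed reads (%, vertical axis) taken by the 74 member arms in each of 11 libraries (horizontal axis), split into miR-369-3p, the arms of miR-376a, b and c, and all other members, with exact 95% intervals of the total that cover counting error only. miR-369-3p fills most of the Drosha cKO sperm bars (0.453% to 0.758% in all), and miR-376 arms fill most of the oocyte and WT-sperm 2PN bars (1.75% and 2.25%).

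Most members were rare in sperm. Over the 7 sperm libraries 20 members had 10 or more reads, 47 had 1 to 9 and 7 had 0. A library detected 31 to 43 members where it held at least 100934 listed reads, 33 in WT replicate 1 with 73377 listed reads, and 9 and 10 in the shallow Drosha cKO libraries. At a common depth of 12003 reads, the expected number detected was 11.9 and 8.23 in WT sperm, 7.48 and 10.5 in Dicer cKO and 11, 9 and 8.88 in Drosha cKO, so the groups overlapped. Upstream arms had 99 reads in WT, 69 in Dicer cKO and 56 in Drosha cKO sperm. Their share of listed reads was 0.0341% and 0.0265%, then 0.0276% and 0.0324%, then 0.0416%, 0.0417% and 0.0565%. The Drosha cKO libraries were the 3 highest on this scale, with 42, 5 and 9 reads, but not on the deposited RPM scale, where the upstream arms summed to 7.35 and 26.7 RPM in WT, 12.2 and 22.7 with the Dicer cKO and 11.2, 12.1 and 11.9 with the Drosha cKO.

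**Figure D2:**
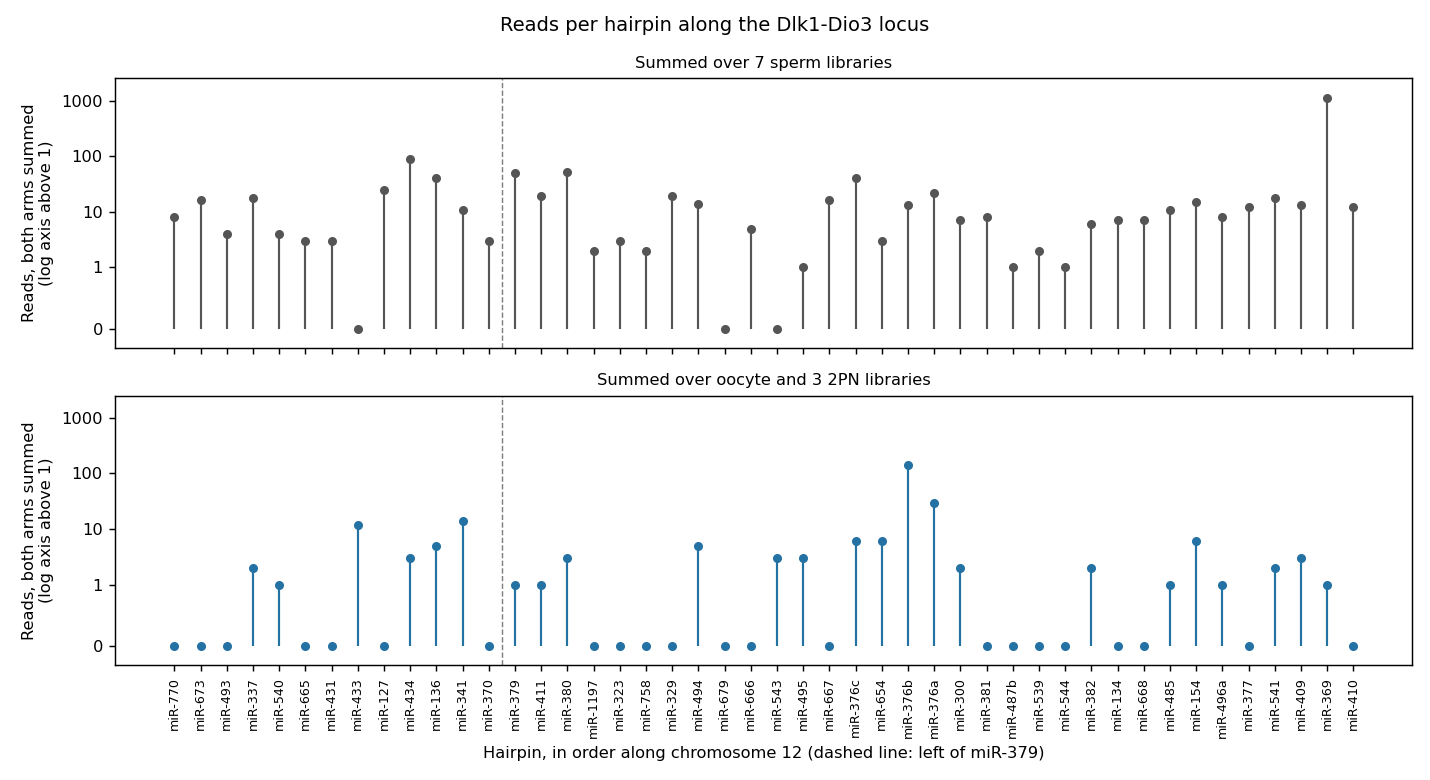
Reads summed over both arms of each of 46 hairpins (vertical axis, logarithmic above 1), in their order along chromosome 12 (horizontal axis), over 7 sperm libraries (top) and over the oocyte and 3 2PN libraries (bottom). In sperm Mir369 stands at 1125 reads and the next hairpin, Mir434, at 89. In oocyte and 2PN libraries Mir376b stands at 140 and Mir376a at 29.

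The 4 tested arms were those that passed edgeR's filter on low counts, out of 335 features tested. The other 70 members did not pass it, so counts of calls over these 4 do not describe the whole cluster. In Dicer cKO against WT sperm 0 of the 4 were called at an adjusted p of 0.05 by edgeR's quasi-likelihood test, against 47.2% of all features tested. In Drosha cKO against WT 0 of 4 were called, against 55.2%. In Drosha cKO against Dicer cKO 0 of 4 were called, against 0.00%. At an unadjusted p of 0.05 edgeR gave 0, 1 and 2 of the 4 in the 3 comparisons, and DESeq2 called 0 in each after adjustment. The median log2 change of the 4 was -0.39, 0.81 and 1.45 in these comparisons, beside 0.03, 0.05 and -0.01 over all features tested. Each pair of these comparisons shares a group, so they are not independent.

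miR-369-3p had 43 and 310 reads in WT sperm, 180 and 103 in Dicer cKO and 346, 71 and 64 in Drosha cKO. Scaled by TMM, a normalisation that sets the bulk of features level between libraries, its level was 663 and 2277 CPM in WT, 1415 and 917 in Dicer cKO, and 2926, 4637 and 3140 in Drosha cKO. On this scale the 3 Drosha cKO libraries were the highest. The WT libraries differed by more than the Dicer cKO ones, which lay between them. By deposited RPM, WT replicate 2 (111.8) lay above Drosha cKO replicates 1 (92.4) and 3 (84.9) and below replicate 2 (172.1). WT replicate 1 (12.6) and both Dicer cKO libraries (64.8 and 66.8) lay below all 3 Drosha cKO libraries. Against WT the log2 change was 1.26 in Drosha cKO (SE 0.58, adjusted p = 0.0873 by edgeR) and -0.34 in Dicer cKO (SE 0.64, adjusted p = 0.678), and the second value changed sign with library totals in place of TMM (0.49). Against Dicer cKO it was 1.60 in Drosha cKO (SE 0.58, adjusted p = 0.192). None of the 3 passed the threshold. With the replicate number as a block, a fit in which Drosha cKO replicate 3 has no partner and carries no weight, the change against WT was 1.45 and passed it (adjusted p = 0.0398 by edgeR). The value against WT without the block rested on WT replicate 1: without that library it was 0.18, with an edgeR adjusted p of 0.877. Without WT replicate 2 it was 1.90 and passed the threshold (adjusted p = 0.0327). Across 17 other settings it stayed positive, between 0.18 and 2.37, with adjusted p from 0.00219 to 0.877. Among all listed features this arm ranked 129 and 95 by reads in WT, 81 and 95 in Dicer cKO and 57, 39 and 54 in Drosha cKO. It made up 33.3% and 61.1% of member reads in WT, 69.2% and 49.0% in Dicer cKO, and 75.7%, 78.0% and 76.2% in Drosha cKO.

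The passenger side of the same stem was nearly absent. Over all 11 libraries miR-369-3p had 1118 reads and miR-369-5p 8, which puts 99.3% on the 3p arm. The 5p reads were 2 and 6 in the WT sperm libraries, and every other library had 0. By group the 3p arm had 353 reads in WT, 283 in Dicer cKO and 481 in Drosha cKO sperm, beside 8, 0 and 0 of the 5p arm. Why the 5p reads were in WT alone was not tested. In the genome assembly supplied for a search of sequence copies, NCBIM37, the 21 bases of miR-369-3p matched exactly once, on chromosome 12, and so did their first 18. With up to 2 mismatches and no gap they matched 20 sites, against 2 for miR-376b-3p. The reads themselves and the mismatches allowed in their alignment are not in the sources at hand, so reads of another RNA with a similar sequence cannot be told apart from this arm in the counts. Whether all counted reads come from this hairpin was not tested.

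miR-380-3p, from a hairpin close to Mir379 in the downstream group, had 2 and 9 reads in WT, 2 and 10 in Dicer cKO, and 16, 6 and 5 in Drosha cKO. On the TMM scale this was 30.8 and 66.1 CPM in WT, 15.7 and 89.1 in Dicer cKO, and 135.3, 391.8 and 245 in Drosha cKO. On that scale all 3 Drosha cKO libraries lay above the other 4, as for miR-369-3p. By deposited RPM, Dicer cKO replicate 2 (6.48) lay above Drosha cKO replicate 1 (4.27). Both WT libraries (0.588 and 3.24) and Dicer cKO replicate 1 (0.720) lay below all 3 Drosha cKO libraries. The log2 change against WT was 2.14 (SE 0.92, adjusted p = 0.0612 by edgeR), and against Dicer cKO it was 2.13 (SE 0.89, adjusted p = 0.232). Without Drosha cKO replicate 1 the change against WT was 2.76 and passed the threshold (adjusted p = 0.0364 by edgeR, with a range from 0.00883 to 0.623 over its settings). With the replicate block it was 2.44 and passed too (adjusted p = 0.0441). Dicer cKO and WT did not separate, with a log2 change of 0.00 (SE 1.01, adjusted p = 0.999 by edgeR).

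miR-434-3p is processed from the antisense transcript of Rtl1 and pairs perfectly with the Rtl1 messenger RNA on the opposite strand. It had 9 and 18 reads in WT, 13 and 11 in Dicer cKO, and 10, 0 and 0 in Drosha cKO. The 2 libraries at 0 were the shallow ones, where 3 reads correspond to 250 and 188 CPM of listed reads. That limit is above the 64.5 to 123 CPM seen in the other 5 libraries, so a drop was not detectable at this depth. The log2 changes were -0.43 in Dicer cKO (SE 0.86, adjusted p = 0.700 by edgeR) and -1.35 in Drosha cKO (SE 0.97, adjusted p = 0.217), both against WT.

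miR-136-5p, a second product of the Rtl1 antisense transcript, had 3 and 13 reads in WT, 4 and 5 in Dicer cKO, and 10, 0 and 4 in Drosha cKO. Its highest level on the TMM scale, 196 CPM, was in Drosha cKO replicate 3. Replicate 2 had 0 reads where 3 reads correspond to 250 CPM of listed reads, so it cannot be ranked. The log2 change against WT was -0.95 in Dicer cKO (SE 1.03, adjusted p = 0.456 by edgeR) and 0.35 in Drosha cKO (SE 0.97, adjusted p = 0.779). Between the knockouts, Drosha cKO minus Dicer cKO was 1.30 for this arm (SE 1.01, adjusted p = 0.476) and -0.92 for miR-434-3p (SE 0.97, adjusted p = 0.603 by edgeR).

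**Figure D3:**
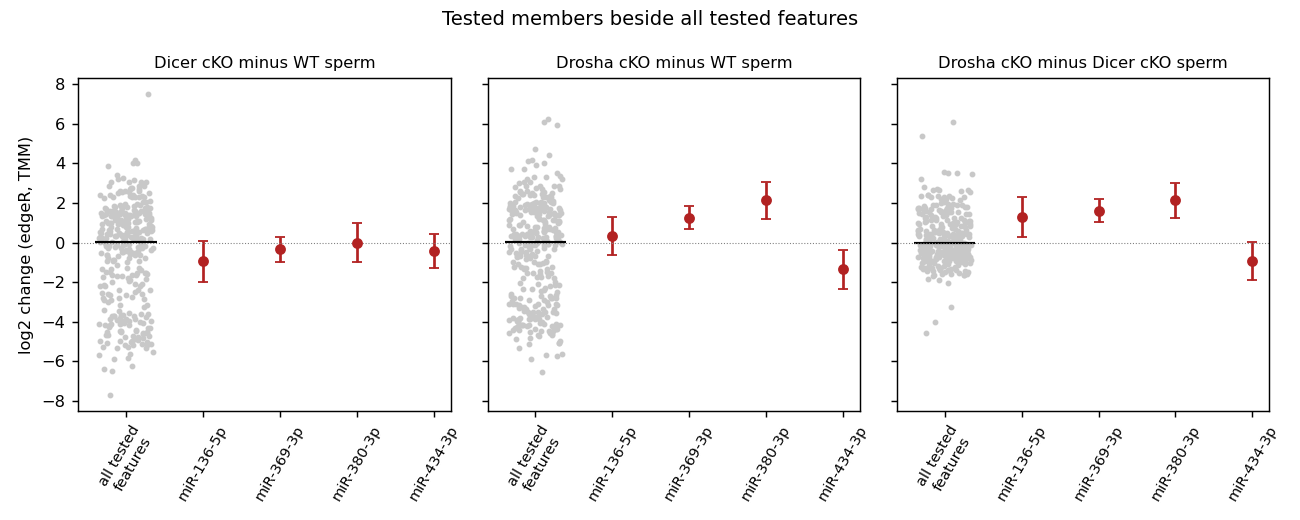
Log2 change by edgeR with TMM scaling (vertical axis) in 3 comparisons of sperm groups, for all 335 tested features (grey points, spread sideways at random, with their median as a black line) and for the 4 tested members (red, bars are the SE). miR-369-3p and miR-380-3p sit above 0 in both comparisons of Drosha cKO, at 1.26 and 2.14 against WT, and near 0 in Dicer cKO minus WT.

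The remaining 16 arms with 10 or more reads in sperm were too sparse for the test, and their counts are given per group. From the Rtl1 antisense side, miR-434-5p had 16 reads in WT, 10 in Dicer cKO and 2 in Drosha cKO, and miR-337-3p had 5, 6 and 7. miR-127-3p, which also pairs with the Rtl1 messenger RNA, had 18, 6 and 0, and miR-673-5p had 1, 2 and 11. miR-341-5p, from the Rian side, had 6, 2 and 3. No direction ran through these upstream arms.

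In the downstream group miR-376c-3p had 19 reads in WT, 14 in Dicer cKO and 7 in Drosha cKO, and miR-379-5p had 18, 15 and 7. Next to it miR-411-5p had 4, 7 and 5, miR-329-3p had 7, 6 and 1 and miR-494-3p had 8, 3 and 2. In the miR-376 family miR-376a-3p had 9, 4 and 1 and miR-376b-5p had 2, 8 and 1. Close to the downstream end miR-485-5p had 2, 7 and 2, miR-154-5p had 4, 4 and 2, miR-541-5p had 16, 1 and 0 and miR-410-3p had 10, 0 and 0. The 10 reads of miR-410-3p came from WT replicate 2 alone.

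Of these arms 3 were at 0 in a knockout group. Against a floor of 3 reads summed over the Drosha cKO libraries, miR-127-3p was 2.19-fold higher and miR-541-5p 1.95-fold higher in WT, as shares of listed reads. The exact 95% intervals of the ratio of Drosha cKO to WT reached up to 0.622 for miR-127-3p and 0.709 for miR-541-5p, a weaker bound than the floors. For miR-541-5p in Dicer cKO, 1 read against 16 in WT gave a ratio of 0.0953 (exact 95% interval 0.00230 to 0.613). At the other end, 11 reads of miR-673-5p in Drosha cKO against 1 in WT gave a ratio of 30.1 (4.37 to 1294). By library these reads were 6, 5 and 0 in Drosha cKO and 0 and 1 in WT. The intervals cover counting error only. The floors leave out the counting error of the WT reads, and neither covers the spread between libraries. These arms had too few reads for the test above. With a filter of at least 10 CPM in 2 libraries, which let 37 members be tested, edgeR called miR-127-3p (adjusted p = 0.0470) and miR-541-5p (adjusted p = 0.0272) lower in Drosha cKO than in WT. These were 2 of 37 members (5.41%), where 15.5% of all 947 features tested under that filter were called. Their adjusted p across the settings that tested them ran from 0.0470 to 0.0917 and from 0.00561 to 0.108. For miR-541-5p those settings include the fits without Dicer cKO replicate 1 or 2, in which it passed the low-count filter and was called against WT. It passed both filters only through WT libraries, with 11 and 5 reads there, 1 and 0 in Dicer cKO and 0 in Drosha cKO. Its calls thus come from an arm that was tested because it was high in WT, and they are no separate support.

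Another imprinted miRNA cluster lies in an intron of Sfmbt2, and 30 arms of the miRNA families known from it were tested. These arms were chosen by miRNA name, and their positions were not checked. Of these, 29 were called lower in Dicer cKO and 28 in Drosha cKO against WT by edgeR, beside 104 and 111 of all 335 features tested. The median log2 changes of the 30 arms were -4.55 and -3.86. Beside those medians the 4 tested Dlk1-Dio3 arms had -0.39 and 0.81. Arms could pass the low-count filter through the 2 WT libraries alone, which favours arms that are high in WT. Whether the 2 sets of arms differ was not tested.

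**Figure D4:**
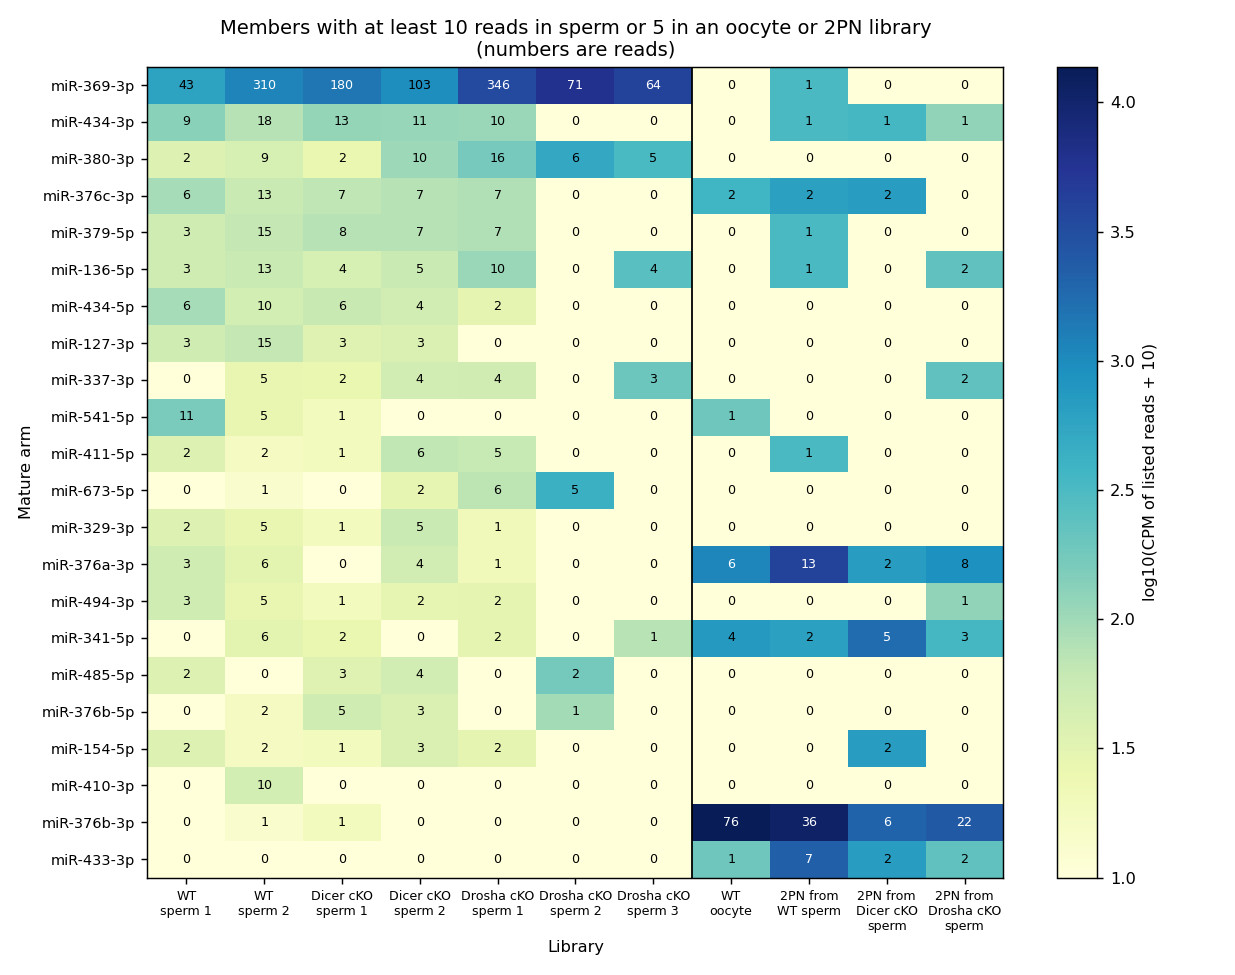
Reads (numbers in cells) of the 22 arms with at least 10 reads over sperm or at least 5 in an oocyte or 2PN library (rows), in 11 libraries (columns); colour is log10 of CPM of listed reads plus 10. miR-369-3p is dark across the 7 sperm libraries, with 43 to 346 reads, and miR-376b-3p is dark across the 4 others, with 6 to 76.

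In oocytes and 2PN embryos the cluster had other leading arms than in sperm. The members took 97 of 5530 listed reads in the WT oocyte library, or 1.75% (exact 95% interval 1.42 to 2.14). They took 73 of 3243 in 2PN embryos from WT sperm, or 2.25% (1.77 to 2.82). In 2PN embryos from Dicer cKO sperm they took 25 of 2951, or 0.847% (0.549 to 1.25), and in those from Drosha cKO sperm 57 of 8967, or 0.636% (0.482 to 0.823). There was 1 library for each of these groups, so no test was possible and the intervals cover counting error only. By share of listed reads the oocyte library and the 2PN libraries from WT and Dicer cKO sperm lay above all 7 sperm libraries. By deposited RPM they did not, with 85.8 RPM in the oocyte and 84.2, 16.6 and 46.9 in the 2PN libraries after WT, Dicer cKO or Drosha cKO sperm, beside 37.9 to 221 in sperm. Listed reads were only 0.196% to 0.737% of the deposited divisor in these 4 libraries, against 2.11% to 10.1% in sperm.

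miR-376b-3p held most of the oocyte signal. It had 76 reads in the oocyte and 36, 6 and 22 in the 2PN libraries after WT, Dicer cKO or Drosha cKO sperm, against 0 and 1 in WT sperm, 1 and 0 in Dicer cKO and 0, 0 and 0 in Drosha cKO. It was 78.4% of member reads in the oocyte and 49.3%, 24.0% and 38.6% in the 2PN libraries, and it ranked 9 among listed features in the oocyte and 12, 29 and 25 in the 2PN libraries. As a share of listed reads it was 1.37% (1.08 to 1.72) in the oocyte, and the difference from sperm also held on the deposited RPM scale, with 67.2 RPM in the oocyte and at most 0.36 in a sperm library. Over all 4 oocyte and 2PN libraries against all 7 sperm libraries the ratio of shares was 2410 (655 to 20093), from 140 reads and 2. The arm's 21 bases matched NCBIM37 exactly once, on chromosome 12, while its first 18 matched 3 times. The hairpin's other arm, miR-376b-5p, had 11 reads in sperm and 0 in the 4 oocyte and 2PN libraries, whereas the 3p arm had 2 and 140. In those 4 libraries 3 reads correspond to 335 to 1017 CPM of listed reads. The 5p arm reached at most 83.3 CPM in a sperm library, so a similar level was not detectable there and its 0 cannot show a difference.

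Among 2PN libraries miR-376b-3p took 1.11% of listed reads (0.779 to 1.53) after WT sperm, 0.203% (0.0747 to 0.442) after Dicer cKO sperm and 0.245% (0.154 to 0.371) after Drosha cKO sperm. The WT-sperm library lay 5.46-fold above the Dicer cKO one (exact 95% interval 2.28 to 15.9) and 4.52-fold above the Drosha cKO one (2.59 to 8.07). Its ratio to the oocyte library was near 1, with the oocyte 1.24-fold higher (0.822 to 1.90). On the deposited RPM scale the values were 41.5, 3.99 and 18.1 in the 3 2PN libraries, so the WT-sperm library was again the highest, and the Dicer cKO one was again the lowest. With a single library on each side, a difference between libraries and one between sperm genotypes cannot be told apart.

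miR-376a-3p, its neighbour with another seed, had 6 reads in the oocyte and 13, 2 and 8 in the 2PN libraries after WT, Dicer cKO or Drosha cKO sperm. Its share after WT sperm was 5.91-fold that after Dicer cKO sperm (1.34 to 54.0) and 4.49-fold that after Drosha cKO sperm (1.73 to 12.5). In sperm it had 14 reads over the 7 libraries, against 2 for miR-376b-3p. miR-376c-3p, the third of the family, had 2 reads in the oocyte, 2 after WT, 2 after Dicer cKO and 0 after Drosha cKO sperm.

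A pair of upstream arms completed the set. miR-433-3p had 1 read in the oocyte, 7 after WT sperm, 2 after Dicer cKO sperm, 2 after Drosha cKO sperm and 0 in all 7 sperm libraries. As a share of listed reads, its 12 reads in the 4 libraries were 137.7-fold above the floor of 3 reads over all sperm, without the counting error of the 12 reads. Over the deposited divisors the same reads gave 13.1-fold. miR-341-5p had 4 reads in the oocyte and 2, 5 and 3 in the 2PN libraries, with 11 over sperm, and its shares in the 2PN libraries did not separate: WT over Dicer cKO sperm was 0.364 (0.0347 to 2.22). Of the members, 29 had a read in at least 1 of these 4 libraries, 11 of them in the oocyte, and 45 had none. The largest number of reads among the other 25 arms seen there was 4 in a library.

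miR-369-3p, the leading arm of sperm, had 0 reads in the oocyte and 1, 0 and 0 in the 2PN libraries. The 0 of 5530 oocyte reads allows a share of up to 0.0542% by the floor of 3 reads and of up to 0.0667% by the exact 95% interval, where the WT sperm libraries had 0.0586% and 0.111%. A difference from WT replicate 1 was thus not detectable at this depth. Against the summed WT sperm reads the floor gives a share 1.85-fold higher in sperm, without the counting error of the sperm reads. Over all 7 sperm libraries against all 4 others the ratio was 32.4 (5.81 to 1283), from 1117 reads and 1.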

How the data were processed

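Small RNA was sequenced in 11 libraries (7 sperm, 1 oocyte, 3 2PN). The authors deposited raw read counts per feature, with no normalization, and RPM values, which equal the deposited counts over a fixed divisor for each library (412523 to 3743577), as the values themselves show. What that divisor counts, the adapter steps and the mismatches allowed are not given in the sources at hand. The submitters' processing notes name Bowtie and mm10. The series text names an Ion Torrent instrument, while the labels' protocols describe Illumina library preparation.

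Sperm counts were tested with edgeR 4.0.16 (R 4.3.3, limma 3.58.1): filterByExpr defaults, TMM, quasi-likelihood test over all 7 sperm libraries in 1 fit, two-sided, Benjamini-Hochberg over the 335 features tested, threshold 0.05, biological coefficient of variation 0.459. DESeq2 1.42.0 was an alternative, and the fit was tested on simulated data. CPM without TMM and shares are relative to listed reads. Intervals are 95% Clopper-Pearson, and ratios of counts have exact conditional intervals (Python 3.11.15, scipy 1.17.1). The floor is 3 reads. Positions and sequences come from RefSeq (GRCm38.p6). NCBIM37 was used only to count sequence matches. Sperm libraries with the same replicate number deviated together across features (r = 0.31, 0.25, 0.20, 0.29 and 0.18), but the labels give the number no meaning and deviations within a group of 2 mirror each other, so the fit with the number as a block is given beside the results it changed.

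Named were all tested members, untested ones with 10 or more sperm reads, and those with 5 or more reads in an oocyte or 2PN library. The hairpins, miR-379-3p, miR-411-3p, miR-494-5p, miR-410-5p and the second set of sequences were added after values were seen. Members and lists were chosen with earlier results of these data known.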

Additional observations from a re-analysis of the deposited data

How the results depend on the processing

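Of 188 alternative values of the 12 log2 changes of tested members, 159 kept their sign and side of the threshold, 8 came to pass it and 21 changed sign. The number of members called by edgeR was 0 to 1 when 1 library was left out, in each of the 3 comparisons. For Drosha cKO against WT it was 2 of 37 with at least 10 CPM in 2 libraries (15.5% of all features called), 2 of 4 with library totals alone (miR-369-3p 2.37, miR-380-3p 3.18; 66.6%) and 2 of 4 with the replicate block (1.45 and 2.44; 54.9%), and for Drosha cKO against Dicer cKO 1 of 4 with only those 2 groups (10.3%; miR-369-3p 1.60, adjusted p = 0.0417, highest over its settings 1). The single calls were miR-541-5p without Dicer cKO replicate 1 (both against WT) or 2 (Drosha cKO), miR-380-3p without Drosha cKO replicate 1, and miR-369-3p without WT replicate 2 (both for Drosha cKO). Library totals alone moved the median of all features to 0.60, 1.04 and 0.25 (Dicer cKO and Drosha cKO against WT, then against each other), and the authors' divisor to 0.88, -0.04 and -0.90.

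Signs changed against WT as follows. miR-369-3p in Dicer cKO: 0.49 with library totals, 0.08 with the authors' divisor, 0.33 with no filter, 0.45 with at least 10 CPM, 0.22 with only 2 groups, and -0.95 to 0.30 with 1 library left out. miR-380-3p in Dicer cKO: -0.12 with DESeq2 size factors, -0.082 with DESeq2, -0.25 with miRNAs only, -0.13 without both shallow libraries, and -1.64 to 0.52 with 1 library left out. miR-434-3p in Dicer cKO: 0.21, 0.36, 0.17 and 0.23 with library totals, divisor, no filter and at least 10 CPM. miR-136-5p in Drosha cKO: -0.036 without both shallow libraries, -0.059 with the replicate block, and -0.42 to 0.81 with 1 library left out. The cause was not tested.

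Over the authors' divisor the member share was 0.0110%, 0.0115% and 0.0151% in WT, Dicer cKO and Drosha cKO sperm, 0.00858% in the oocyte and 0.00842%, 0.00166% and 0.00469% in 2PN libraries after WT, Dicer cKO or Drosha cKO sperm. As a share of listed reads, the members without the top hairpin took 0.0915%, 0.0820% and 0.134% in WT, Dicer cKO and Drosha cKO sperm. They took 0.380% in the oocyte, and 1.14% and 0.390% in 2PN libraries from WT and Drosha cKO sperm. With the other miRNAs of the locus the share of listed reads was 0.185% in WT sperm. The replicate block changed no other call of a tested member. With the default filter 70 of 74 members were too sparse to test; 37 were tested with at least 10 CPM in 2 libraries and 67 with no filter.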

Other observations

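A further 12 listed features with hairpins in or beside the same locus were not members. Summed, they had 7 and 9 reads in WT sperm, 11 and 11 in Dicer cKO, 18, 1 and 7 in Drosha cKO, 4 in the oocyte and 2, 2 and 1 in the 2PN libraries after WT, Dicer cKO or Drosha cKO sperm. None had enough reads to be tested. Of the miRNAs of other imprinted loci outside Sfmbt2, 2 arms were tested, and edgeR called 1 of them lower in each knockout against WT. Over all 335 features tested, 104 were called lower in Dicer cKO and 111 in Drosha cKO.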
